A study of Mus musculus with 16 samples.

Results

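The genes described here mark the granule cell of the cerebellum. They are 10 genes, Gabra6, Neurod1, Neurod2, Cbln1, Cbln3, Zic1, Zic2, Etv1, Fat2 and Pax6, chosen by name as textbook genes of this cell and found on the arrays through the accessions of their probes. They had 15 of the 56605 probes of the array and were 10 of its 22911 named genes. All 15 probes were well above background on each of the 16 arrays, so none was lost to a filter on dim probes. The arrays measured RNA from the cerebellar cortex of 16 mice, 1 array for each mouse and 4 mice in each of 4 groups. WT veh and Atm-/- veh mice drank water, while WT NR and Atm-/- NR mice drank nicotinamide riboside (NR), a precursor of NAD+, at 3.5 mg/ml (12 mM) for 2 months from the age of 6 weeks, and the age at the end is given as 3.5 months. Mutant mice were homozygous for the Atmtm1Bal allele on a mixed B6;129S4 background and WT mice were their littermates, so the mutant lacked Atm, the kinase that answers DNA double-strand breaks, in every cell of the body and not in granule cells alone. The question was whether the loss of Atm, or NR, moved the genes that give granule cells their identity.

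Granule cells are the most numerous neurons of the brain. They are small excitatory neurons whose axons, the parallel fibres, run through the outer layer of the cerebellar cortex and make synapses on Purkinje cells. Their progenitors divide after birth under Sonic hedgehog, switch on NeuroD factors as they leave the cycle, and then acquire the receptors and secreted synapse organizers of the mature cell. In ataxia telangiectasia, the human disease caused by loss of ATM, the cerebellum degenerates and both Purkinje and granule cells are lost. In whole tissue a lower signal from granule cell genes can come from fewer granule cells or from less RNA in each, and these cannot be told apart.

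Several properties of the arrays touch every comparison. The 4th array of the WT veh group stood apart in these genes. All 10 read lower on it than on the other 3 WT veh arrays, by a median of -0.57 on the log2 scale and by -0.29 (Etv1) to -0.91 (Zic2), where 40.4% of all probes did so. For 7 of the 10 it was the lowest of the 16 arrays, against 13.8% of all probes. The same array had strong signal of markers from tissue outside the cerebellar cortex. Ttr, the transthyretin gene of the choroid plexus, read 18.05 there against at most 12.62 on the other 15 arrays. All 3 choroid plexus markers tested (Ttr, Folr1 and Clic6) and 3 of 6 markers of neighbouring regions had their highest value there, 6 of 6 microglial markers were above the other WT veh arrays by a median of 0.79, and 8 of 10 Purkinje cell markers were below them. The part of these other tissues in the granule cell values was not tested, and the main results that rest on WT veh are given with and without the array. All WT arrays lay on one slide and all Atm-/- arrays on another, which leaves slide and genotype effects mixed: they cannot be told apart. On both slides the vehicle arrays filled one row and the NR arrays the other, so row and NR cannot be told apart either. The labels give every mouse as male, but 4 arrays had Xist and no Y-linked signal, namely Atm-/- veh 3, Atm-/- NR 4 and the first and last of WT NR. The number of probes well above background was 34945 to 37817 on Atm-/- NR arrays and 39134 to 41905 on Atm-/- veh arrays. The labels of genotype were borne out by 1 of 2 Atm probes, which was lower in Atm-/-, with a difference of -0.87 under vehicle (limma, adjusted p = 0.000317) and of -0.76 under NR (adjusted p = 0.00135), while the other differed by -0.35 and -0.12 without passing the test (adjusted p = 0.221 and 1).

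**Figure D1:**
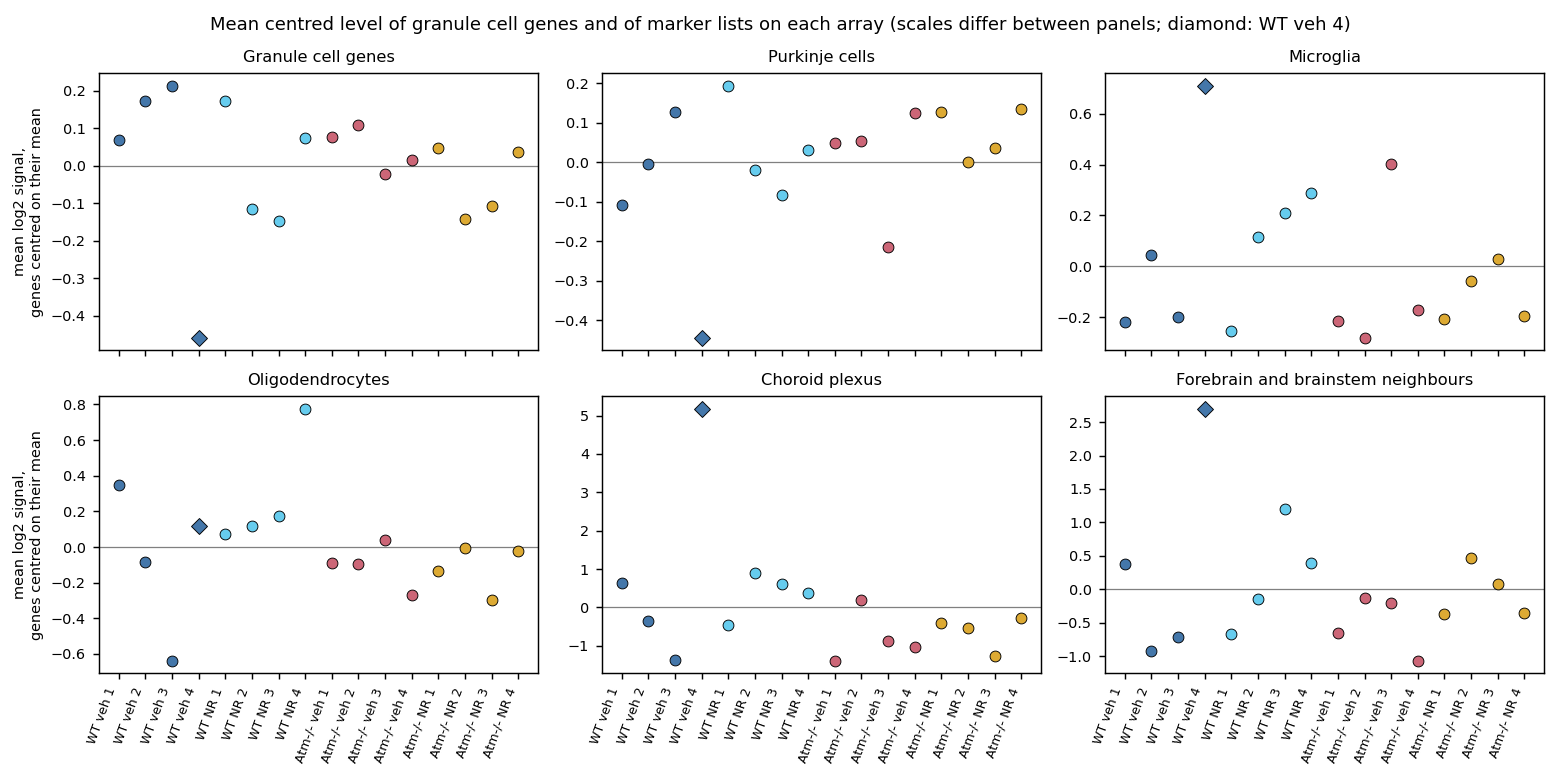
Mean log2 signal of 6 gene lists on the 16 arrays (x axis, each array by group and number), each gene centred on its own mean over the arrays, with WT veh 4 drawn as a diamond. WT veh 4 is lowest for the granule cell genes (-0.459) and the Purkinje cell markers (-0.445) and highest for microglia (0.709), choroid plexus (5.18) and neighbouring regions (2.70), and the scale differs between panels.

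The region in front of the start of 4 of the genes is printed because 2 of them (Cbln3 and Neurod2) had the clearest separation between Atm-/- veh and Atm-/- NR mice, Neurod1 lay on the other side of 0 from its close relative Neurod2, and Gabra6 is the best known marker of the mature cell. RefSeq held a promoter for 8 of the 10 genes, in 10 entries, on build GRCm38.p6, and all 4 shown lie on the minus strand. The 250 bases are chr14:55884257-55884506 for Cbln3, chr11:98329646-98329895 for Neurod2, chr2:79456637-79456886 for Neurod1 and chr11:42321073-42321322 for Gabra6, written 5′ to 3′ up to the base before the start. Capitals mark E-boxes (CANNTG, the letters bound by NeuroD and other helix-loop-helix factors) and TTGGCA or its complement TGCCAA, the core letters of sites for nuclear factor I (NFI), a family that works in maturing granule cells.
Cbln3: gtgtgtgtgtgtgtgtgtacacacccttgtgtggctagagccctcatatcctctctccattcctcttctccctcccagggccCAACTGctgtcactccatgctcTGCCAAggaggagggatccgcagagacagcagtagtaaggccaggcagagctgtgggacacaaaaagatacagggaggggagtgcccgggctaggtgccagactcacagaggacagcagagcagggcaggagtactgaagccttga
Neurod2: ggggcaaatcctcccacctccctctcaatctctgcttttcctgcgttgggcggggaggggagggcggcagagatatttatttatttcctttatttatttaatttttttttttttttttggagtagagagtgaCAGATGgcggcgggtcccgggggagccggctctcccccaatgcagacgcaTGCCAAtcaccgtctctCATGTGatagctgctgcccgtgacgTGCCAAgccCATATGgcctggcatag
Neurod1: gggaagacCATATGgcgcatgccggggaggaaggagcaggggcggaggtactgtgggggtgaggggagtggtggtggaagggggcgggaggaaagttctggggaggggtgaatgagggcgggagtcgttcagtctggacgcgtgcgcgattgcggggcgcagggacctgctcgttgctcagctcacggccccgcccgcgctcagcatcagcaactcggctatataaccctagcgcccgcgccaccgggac
Gabra6: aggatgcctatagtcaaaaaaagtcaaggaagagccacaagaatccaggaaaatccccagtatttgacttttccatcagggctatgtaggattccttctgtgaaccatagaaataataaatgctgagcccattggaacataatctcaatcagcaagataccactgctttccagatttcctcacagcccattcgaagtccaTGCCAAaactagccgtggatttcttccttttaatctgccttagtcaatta

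Neurod2 carried the most of these letters, with E-boxes 118, 51 and 17 bases before its start and TGCCAA 68 and 26 bases before it. Cbln3 had 1 E-box at 168 bases and TGCCAA at 146 bases, Neurod1 had 1 E-box at 242 bases, and Gabra6 had no E-box and TGCCAA at 50 bases. Over both strands of the 10 entries, E-boxes were in 7, the narrower CAGATG, which is itself an E-box and overlaps that count, in 2, and TTGGCA in 4. Among all 32851 promoters of the same length the shares were 66.2%, 14.4% and 12.3%. These are matches of letters and not measured binding.

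Expression is given as log2 of the quantile normalized signal of the brightest probe of a gene, on a scale where 1 unit is a doubling. Levels of different genes are not comparable on it, since each probe has its own brightness. The spread between mice within groups, pooled over the 4 groups, was 0.168 to 0.252 log2 units for the 10 genes. Its median over all probes was 0.228. In single groups the SD ran from 0.0302 (Gabra6 in Atm-/- veh) to 0.458 (Zic2 in WT veh, with WT veh 4). A difference was called where the adjusted p of limma over all 37253 probes was under 0.05.

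**Figure D2:**
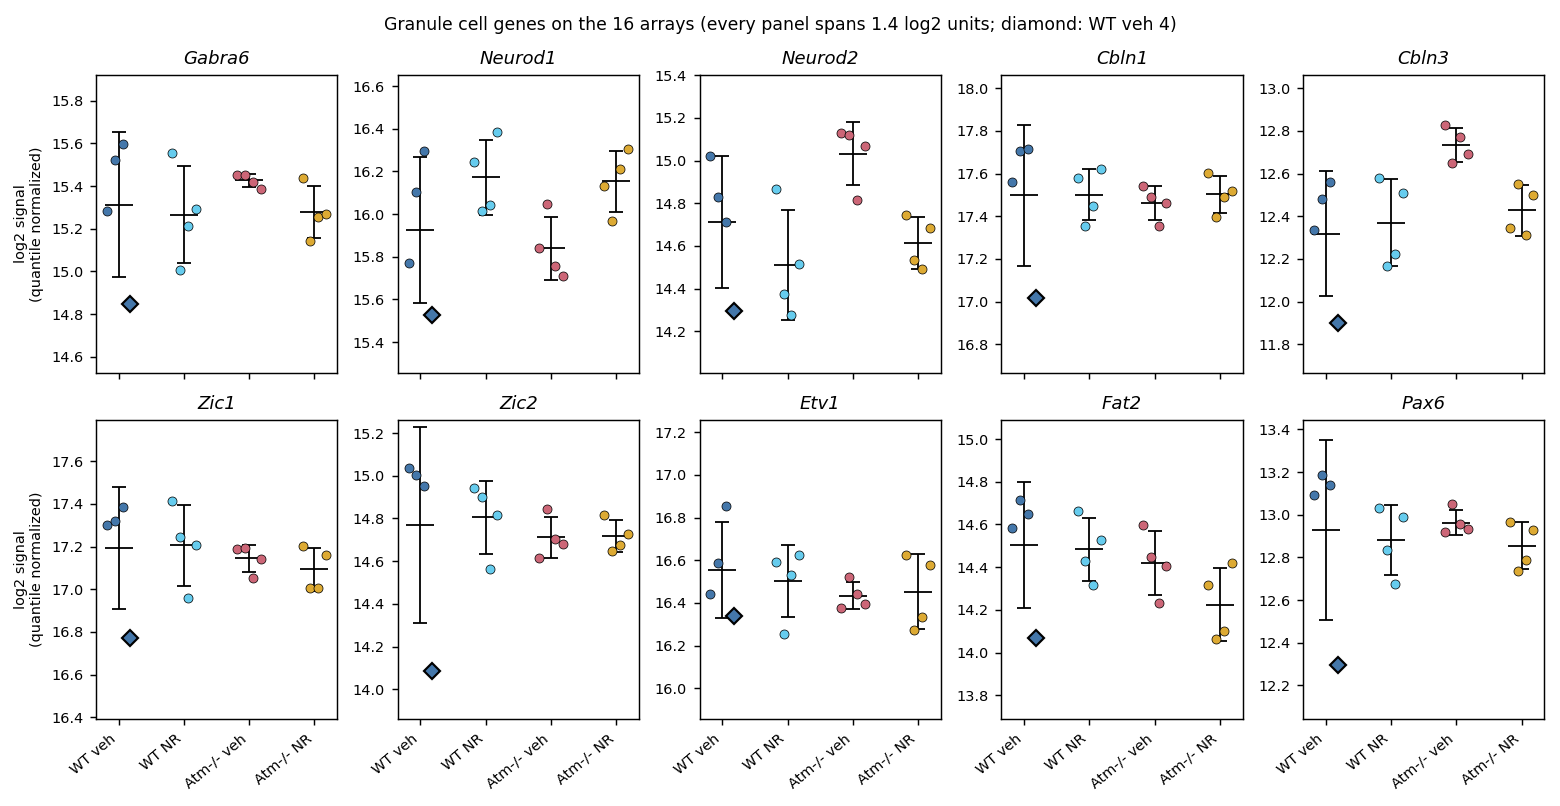
Log2 signal (y axis, quantile normalized) of each of the 10 granule cell genes in the 4 groups, with a point for each array, the group mean as a bar and its SD as error bars (n = 4). WT veh 4, the diamond, lies below the other WT veh arrays in every panel, and Cbln3 in Atm-/- veh mice (12.65 to 12.83) lies above all WT veh and all Atm-/- NR arrays.

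The NeuroD factors open the granule cell programme. Neurod1, which granule cells need to differentiate and survive, read 15.77, 16.11, 16.30 and 15.53 in WT veh mice 1 to 4 and 16.25, 16.01, 16.04 and 16.38 in WT NR mice. In Atm-/- veh mice it read 15.84, 16.05, 15.76 and 15.71, and in Atm-/- NR mice 16.13, 15.97, 16.21 and 16.30. The NR mice of both genotypes lay towards the upper end, but each NR group overlapped its vehicle group. Neurod2, a close relative that granule cells also need to survive, read 15.02, 14.83, 14.71 and 14.29 in WT veh and 14.87, 14.38, 14.28 and 14.52 in WT NR mice. It read 15.13, 15.12, 14.81 and 15.07 in Atm-/- veh and 14.75, 14.53, 14.49 and 14.68 in Atm-/- NR mice. All 4 Atm-/- veh mice were above all 4 Atm-/- NR mice, while the WT groups overlapped.

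The zinc finger factors Zic1 and Zic2 are kept on from the progenitor into the adult granule cell. Zic1 had group means of 17.20 ± 0.285 in WT mice on vehicle and 17.21 ± 0.189 on NR, and of 17.15 ± 0.0642 in Atm-/- mice on vehicle and 17.09 ± 0.102 on NR (SD, n = 4). Zic2 read 15.04, 15.01, 14.95 and 14.08 in WT veh and 14.94, 14.90, 14.56 and 14.81 in WT NR mice, with WT veh 4 far below the rest. It read 14.62, 14.85, 14.70 and 14.68 in Atm-/- veh and 14.82, 14.65, 14.68 and 14.73 in Atm-/- NR mice. Without WT veh 4, each Atm-/- veh mouse lay below each WT veh mouse for both Zic1 and Zic2.

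Pax6, the paired box factor that granule cells carry from the rhombic lip on, read 13.09, 13.19, 13.14 and 12.30 in WT veh and 13.03, 12.83, 12.68 and 12.99 in WT NR mice. It read 12.92, 13.05, 12.95 and 12.93 in Atm-/- veh and 12.97, 12.74, 12.79 and 12.93 in Atm-/- NR mice. The first 3 WT veh mice were above all other mice, of which the highest was an Atm-/- veh mouse at 13.05. Etv1, an ETS factor of the maturing granule cell, had the least pooled spread of the 10 genes, with group means of 16.56 ± 0.224 in WT mice on vehicle and 16.50 ± 0.168 on NR, and of 16.43 ± 0.0641 in Atm-/- mice on vehicle and 16.45 ± 0.175 on NR (SD, n = 4). Its groups all overlapped.

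Among the products of the mature cell, Gabra6 encodes the alpha6 subunit of the GABA-A receptor, which is made almost only by granule cells. It read 15.28, 15.52, 15.60 and 14.85 in WT veh, and its mean was 15.27 ± 0.226 in WT mice on NR, 15.43 ± 0.0302 in Atm-/- mice on vehicle and 15.28 ± 0.122 on NR (SD, n = 4). The 4 Atm-/- veh mice lay between 15.39 and 15.45, inside the range of WT veh. Fat2, a giant protocadherin of parallel fibres, read 14.58, 14.72, 14.65 and 14.07 in WT veh and 14.66, 14.43, 14.32 and 14.53 in WT NR mice. It read 14.60, 14.45, 14.23 and 14.41 in Atm-/- veh and 14.32, 14.06, 14.10 and 14.42 in Atm-/- NR mice. Atm-/- NR had the lowest mean of the 4 groups for Fat2, and its range overlapped those of the other groups.

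The cerebellins are secreted by granule cells. Cbln1 bridges the parallel fibre, through neurexin, and the Purkinje cell and holds their synapse together, and Cbln3 is its partner in the same complexes. Cbln1 had means of 17.50 ± 0.33 in WT mice on vehicle and 17.50 ± 0.121 on NR, and of 17.46 ± 0.0794 in Atm-/- mice on vehicle and 17.50 ± 0.0851 on NR (SD, n = 4). The means furthest apart, those of the Atm-/- groups, differed by 0.04. Cbln3 read 12.34, 12.48, 12.56 and 11.90 in WT veh and 12.58, 12.17, 12.22 and 12.51 in WT NR mice. It read 12.83, 12.65, 12.77 and 12.69 in Atm-/- veh and 12.34, 12.55, 12.31 and 12.50 in Atm-/- NR mice. All 4 Atm-/- veh mice were above every mouse of the other 3 groups.

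**Figure D3:**
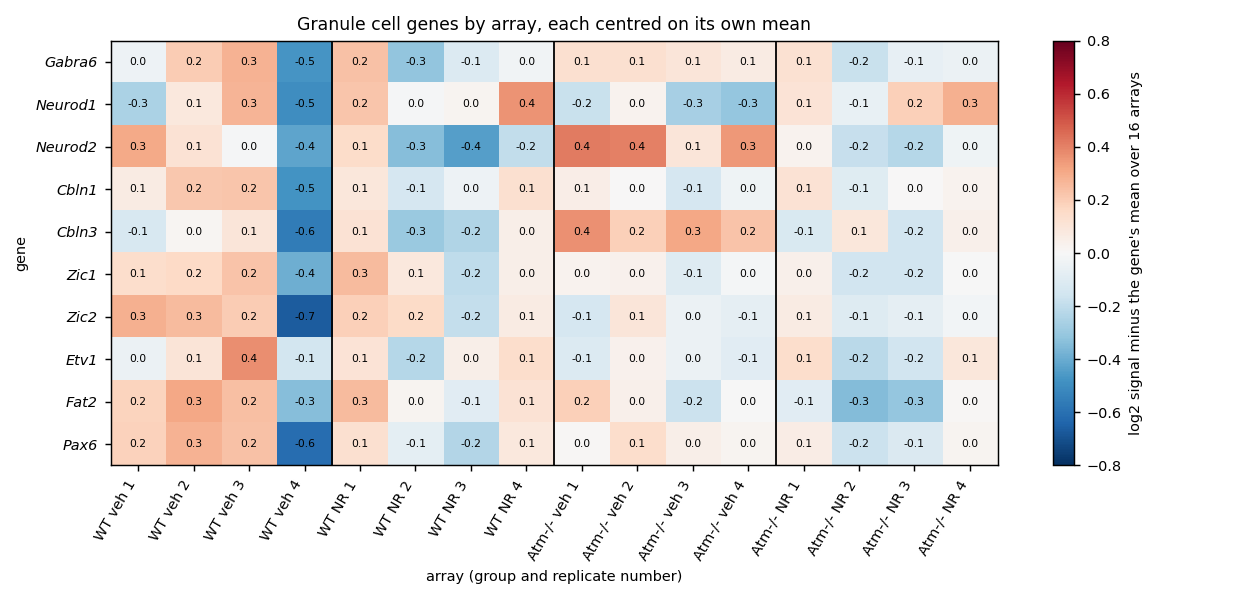
Log2 signal of the 10 granule cell genes (rows) on the 16 arrays (columns, by group and number), minus each gene's mean over the arrays, with red above and blue below that mean. WT veh 4 is blue for all 10 genes, while Neurod2 and Cbln3 are red on the 4 Atm-/- veh arrays.

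Loss of Atm under vehicle was examined by comparing Atm-/- veh with WT veh mice. With limma 0 of the 10 granule cell genes passed the test, where 0.0537% of all probes did. Cbln3 alone had an unadjusted p under 0.05, against 14.6% of all probes. The methods' t-test also found Cbln3 alone before adjustment, as it did 11.7% of all probes, and neither a member nor any other probe after it. Cbln3 was higher in Atm-/- veh by 0.42 (SE 0.14), or 33.5%, with an adjusted p of 0.224, and its 95% interval ran from 0.13 to 0.71. Its groups did not overlap, which held for 4.15% of all probes in this direction, and its second, dimmer probe differed by 0.38 (adjusted p = 0.38) with overlapping groups. Neurod2 differed by 0.32 (adjusted p = 0.359), and the other 8 genes by -0.12 (Etv1) to 0.11 (Gabra6). In all, 4 genes were higher and 6 lower, with a median of -0.04, beside a median of -0.0042 over all probes. The 95% intervals of the 10 genes lay between -0.43 (Zic2) and 0.71 (Cbln3).

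Leaving out WT veh 4 changed the balance of this comparison. All 10 genes read lower on that array than on the other WT veh arrays, as did 40.4% of all probes. Leaving it out therefore moves every comparison with WT veh in a direction fixed beforehand, and the shift itself is no further result. Of the 10 genes 8 were then lower in Atm-/- veh, with a median of -0.19, where 53.5% of all probes were lower, and still 0 passed the test (0.0346% of all probes). Cbln1, Zic1, Zic2 and Pax6 were each lower in all 4 Atm-/- veh mice than in the remaining 3 WT veh mice, a separation in this direction that 8.58% of all probes had, and Cbln3 was higher in all 4 (5.78% of all probes). Zic2 differed by -0.29 (adjusted p = 0.201), Cbln1 by -0.20 (adjusted p = 0.281) and Cbln3 by 0.28 (adjusted p = 0.258). Neurod2 moved from 0.32 to 0.18 (adjusted p = 0.542). On the 12 arrays with Y-linked signal, where WT veh 4 remained, 5 genes were higher and 5 lower, with a median of -0.0051.

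The effect of NR in the mutant was examined by comparing Atm-/- NR with Atm-/- veh mice. WT veh 4 is in neither group, but it took part in the normalization, the filter and the pooled spread behind the SEs and p-values. Again 0 of the 10 genes passed the test, in a comparison where 9.04% of all probes did. Neurod2 and Cbln3 had an unadjusted p under 0.05, against 27.3% of all probes, and both were lower under NR with no overlap between the groups, which 9.09% of all probes showed in this direction. Neurod2 was lower, with a difference of -0.42 (SE 0.15, 95% interval -0.75 to -0.09), or -25.2%, with an adjusted p of 0.0987. Cbln3 was lower, with a difference of -0.31 (SE 0.14, interval -0.60 to -0.02), with an adjusted p of 0.159, and by -0.41 on its dimmer probe (adjusted p = 0.194), where the groups overlapped. Neurod1 differed by 0.31 in the other direction (adjusted p = 0.198), with overlapping groups, and the other 7 genes by -0.20 (Fat2) to 0.04 (Cbln1). Of the 10 genes 4 were higher and 6 lower, with a median of -0.08 beside -0.00084 over all probes.

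The Neurod2 value sits near the threshold. It passed with the spread estimated without WT veh 4, at -0.42 and an adjusted p of 0.0492, where 11.6% of all probes passed. Besides this setting, array weights, a fit of the Atm-/- arrays alone and one with Y-linked arrays only and without WT veh 4 called it, which makes 4 of 27 alternatives, with adjusted p from 0.0205 to 0.217 and a lower value in all 27. By the methods' t-test Neurod1, Neurod2 and Cbln3 were under the threshold before adjustment, as were 26.9% of all probes. After it Neurod2 was the only member left, among 3184 of all 37253 probes. All 4 Atm-/- NR arrays had fewer probes well above background than all 4 Atm-/- veh arrays, and the part of this difference in the result was not tested.

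Dimmer probes of Zic2 and Pax6 did not always follow the brightest one. The second probe of Zic2 was lower under NR in Atm-/- by -0.29 (adjusted p = 0.226) with no overlap, where the brightest probe differed by 0.0051. In Atm-/- veh against WT veh the same probe differed by 0.19 and the brightest by -0.06. Pax6 had 4 probes, which under NR in Atm-/- differed by -0.11 on the brightest and by -0.23, -0.22 and 0.22 on the others. Under vehicle they differed between genotypes by 0.03 on the brightest and by 0.18, -0.16 and -0.32 on the others, and none of these values passed the test.

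In WT mice, NR against vehicle gave 0 called of the 10 genes and 0% of all probes. None of the 10 had an unadjusted p under 0.05, which 7.62% of all probes had, none was found by the methods' t-test (6.65% of all probes before adjustment), and none separated the groups (4.09% of all probes). The values ran from -0.21 (Neurod2) to 0.25 (Neurod1), with 5 genes higher, 5 lower and a median of -0.0086. Without WT veh 4, 9 of the 10 were lower under NR, with a median of -0.16, where 56.3% of all probes were lower. The direction of this shift too was fixed beforehand by the low values of all 10 genes on that array. Zic2 and Pax6 were then lower in every WT NR mouse than in the remaining WT veh mice, against 7.01% of all probes, Pax6 by -0.26 (adjusted p = 0.39) and Zic2 by -0.19 (adjusted p = 0.505). Neurod2 differed by -0.35 (adjusted p = 0.426), and again 0 genes passed the test, with 0.00267% of all probes.

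**Figure D4:**
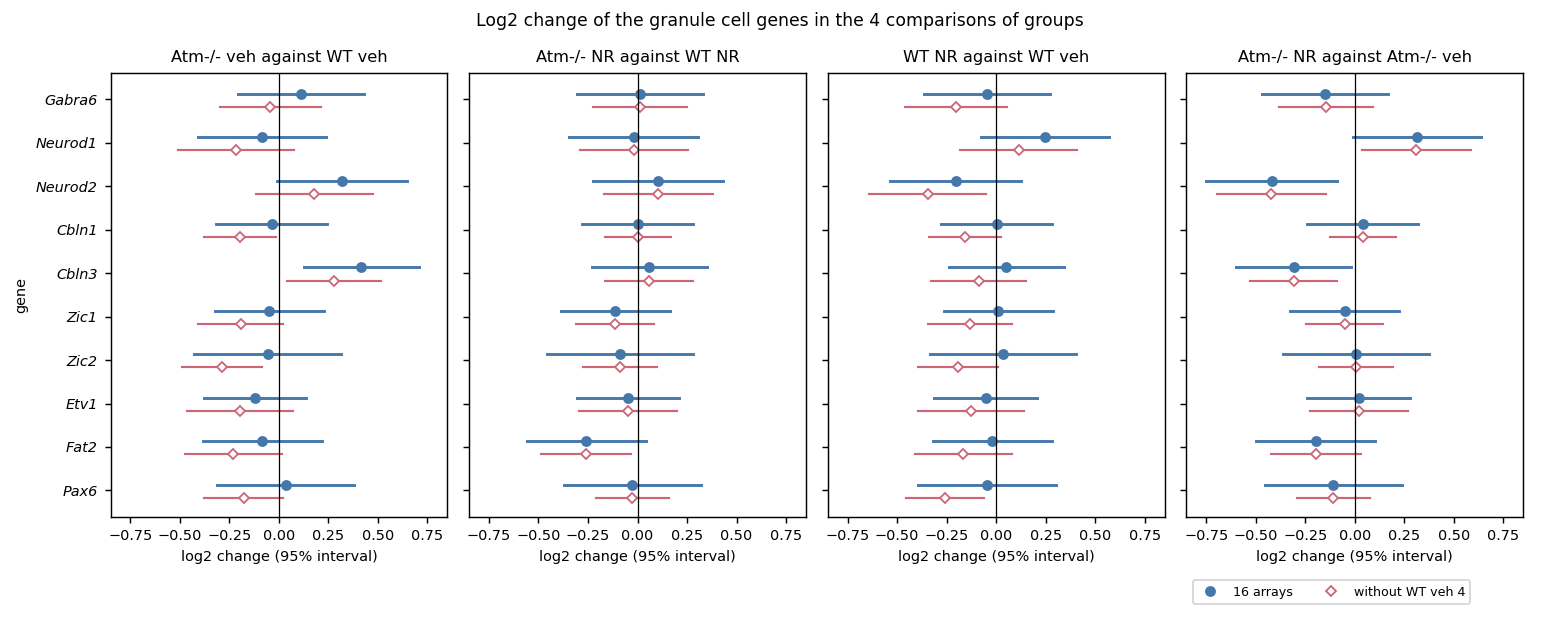
Log2 change of the 10 granule cell genes with 95% intervals (x axis) in the 4 comparisons of groups, with all 16 arrays (filled circles) and without WT veh 4 (open diamonds). Without that array 8 of 10 genes in Atm-/- veh against WT veh and 9 of 10 in WT NR against WT veh lie below 0, while values in Atm-/- NR against Atm-/- veh stay nearly in place and their intervals narrow.

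Under NR the genotypes did not differ detectably in these genes. In Atm-/- NR against WT NR, 0 of the 10 passed the test (0.0537% of all probes) and none had an unadjusted p under 0.05 (5.21%) or was found by the methods' t-test (6.42%). The values ran from -0.26 (Fat2, adjusted p = 0.991) to 0.10 (Neurod2), with a median of -0.02. The difference between the NR effect in Atm-/- and that in WT was called by limma for 0 of 10 genes and 0% of all probes, and none of the 10 had an unadjusted p under 0.05 (5.27% of all probes). It was furthest from 0 for Cbln3, at -0.36 (SE 0.19, 95% interval -0.77 to 0.05, adjusted p = 0.839), with an NR effect of -0.31 in Atm-/- and 0.05 in WT mice. The median of the 10 differences was -0.06, and without WT veh 4 it was 0.11. Without that array Cbln3 was at -0.22 (adjusted p = 0.721), with Cbln1 and Zic2 each at 0.20 on the other side of 0.

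Averaging over the other factor used all 16 mice. For genotype over both treatments 0 of 10 genes passed (0.201% of all probes), and with WT veh 4 Cbln3 alone had an unadjusted p under 0.05, at 0.24 (adjusted p = 0.32), beside 12.9% of all probes. With that array 4 genes were higher and 6 lower, and without it 2 were higher and 8 lower, again with 0 passing (0.165% of all probes). Without it 4 had an unadjusted p under 0.05, beside 14.3% of all probes, namely Fat2 at -0.24 (adjusted p = 0.213), Zic2 at -0.19 (adjusted p = 0.239), Zic1 at -0.15 (adjusted p = 0.324) and Cbln3 at 0.17 (adjusted p = 0.333). For NR over both genotypes 0 of 10 passed, against 10.8% of all probes. Neurod1 at 0.28 (SE 0.11, adjusted p = 0.107) and Neurod2 at -0.31 (SE 0.11, adjusted p = 0.08) had an unadjusted p under 0.05, beside 27.4% of all probes, and the paralogs lay on opposite sides of 0. Without WT veh 4 Neurod2 passed at -0.38 (adjusted p = 0.0217, 12.5% of all probes called) and Neurod1 was at 0.21 (adjusted p = 0.148). Also called were a dimmer probe of Zic2 at -0.25 (adjusted p = 0.0367) and one of Pax6 at -0.26 (adjusted p = 0.0343). Their brightest probes did not pass. Without that array 9 of the 10 genes were lower under NR, beside 52.8% of all probes. Gabra6, Neurod1, Neurod2, Cbln3, Fat2 and Pax6 had an unadjusted p under 0.05, beside 29.5% of all probes. Neurod2 also passed without WT NR 1, where 4315 of all probes were called, and Neurod1 without WT veh 3, where 3378 were. Over any difference among the 4 groups the F test called 0 of 10 genes and 4.84% of all probes. Neurod2 (adjusted p = 0.143) and Cbln3 (adjusted p = 0.174) had an unadjusted p under 0.05 in it, beside 23.8% of all probes. Without WT veh 4 it again called 0 of 10 genes, with 7.34% of all probes called.

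The 10 genes varied together between mice. Over the 16 arrays the correlation of 2 of them had a median r of 0.63 over the 45 pairs, from -0.14 to 0.92, and was above 0 for 44 pairs. With group means removed the median was 0.78, and with WT veh 4 also left out it was 0.55, with all 45 pairs above 0. Each pair shares its arrays and their normalization, so these values are a description. The named genes with the most similar course to the mean of the 10, among 16727 compared over 16 arrays, were Tspan4 (r = 0.93), Rps6ka1 (0.92), Echdc2 (0.91), Slc1a6 (0.91) and St3gal2 (0.91). Slc1a6 encodes a glutamate transporter of Purkinje cells. Without WT veh 4 their r was 0.83 to 0.89, and St3gal2 and Echdc2 were still among the 5 most similar genes.

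A second list holds other genes of mature granule cells, and 19 of its 20 were tested, since Kcnk9 was too dim. In Atm-/- NR against Atm-/- veh 3 of the 19 passed the test, all lower, where 9.04% of all probes passed in either direction. Over the list 7 were higher and 12 lower, with a median of -0.11. The changes ran from -0.54 to 0.83 there and from -0.48 to 0.66 under NR in WT mice, so the largest were rises. None of the rises passed. Slc17a7, the vesicular glutamate transporter that loads the transmitter of parallel fibres, fell from 12.68, 12.38, 12.06 and 12.29 in Atm-/- veh mice to 11.90, 11.76, 11.75 and 11.82 in Atm-/- NR mice. Every NR mouse was below every vehicle mouse, and the change was -0.54 (SE 0.13, limma, adjusted p = 0.0263). Reln, the extracellular protein reelin, fell from 14.12, 14.00, 14.42 and 14.29 to 13.96, 13.47, 13.47 and 13.86, a change of -0.52 (SE 0.14, adjusted p = 0.0335), again without overlap. Nfix, an NFI factor, fell from 14.52, 14.43, 14.37 and 14.29 to 13.99, 13.85, 13.86 and 13.96, a change of -0.49 (SE 0.11, adjusted p = 0.0193). Its second probe passed as well, at -0.48 (adjusted p = 0.018), another did not, at -0.27 (adjusted p = 0.42), nor did the second probe of Reln, at -0.34 (adjusted p = 0.272).

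The same 3 genes were lower under NR in WT mice without passing the test. Slc17a7 read 12.24, 12.15, 12.11 and 12.29 in WT veh and 12.03, 11.52, 11.49 and 11.83 in WT NR mice, so these groups did not overlap either, with a difference of -0.48 (adjusted p = 0.494). Reln differed by -0.27 (adjusted p = 0.693) and Nfix by -0.19 (adjusted p = 0.734). Over both genotypes 6 of the 19 genes were higher under NR and 13 lower, and the largest change was a rise of 0.75. Of the rises 3 had an unadjusted p under 0.05 and none passed the test. The test called 4 genes, all lower, where 10.8% of all probes were called in either direction. They were Slc17a7 at -0.51 (adjusted p = 0.00809), Reln at -0.39 (adjusted p = 0.0231), Nfix at -0.34 (adjusted p = 0.0174) and Calb2, the calcium binding protein calretinin, at -0.38 (adjusted p = 0.0465). These 4 were again called without WT veh 4, and Grin2a was also called, higher, at 0.39 (adjusted p = 0.0249). With all 16 arrays, dimmer probes of these genes were also lower under NR over both genotypes, but not all passed. The dimmer probe of Calb2 was at -0.29 (adjusted p = 0.165) and that of Reln at -0.41 (adjusted p = 0.0658), and neither passed. For Nfix a dimmer probe passed at -0.33 (adjusted p = 0.0164), and another did not, at -0.14 (adjusted p = 0.573). Slc17a7 and Nfix were called for NR over both genotypes in all 23 other settings, Reln in 22 and Calb2 in 6, and in Atm-/- NR against Atm-/- veh Slc17a7 was called in 22, Reln in 19 and Nfix in 22 of 27. Without Atm-/- veh 1, Atm-/- NR 2 or Atm-/- NR 3 none of the 3 passed there, Slc17a7 also missed the threshold without Atm-/- veh 4 (adjusted p = 0.0558) or Atm-/- NR 4 (adjusted p = 0.0529), and Reln without Atm-/- veh 3 (adjusted p = 0.0828) or Atm-/- veh 4 (adjusted p = 0.0854). On the Y-linked arrays Slc17a7 alone passed. The highest adjusted p with 1 array left out was 0.083 for Slc17a7, 0.103 for Reln and 0.0657 for Nfix. Calb2 passed over both genotypes in 3 of the 16 fits with 1 array left out. In Atm-/- veh against WT veh limma called 0 of the 19 genes and Snap25 alone had an unadjusted p under 0.05, with Snap25 at 0.36 (adjusted p = 0.279), Chn2 at 0.24, Grin2a at -0.26 and Rbfox3 at -0.26. Without WT veh 4 these were Snap25 0.41 (adjusted p = 0.235), Chn2 0.15, Grin2a -0.06 and Rbfox3 -0.39 (adjusted p = 0.154), and again 0 of 19 were called, with 6 higher and 13 lower. Snap25, Chn2 and Grin2a serve synapses and signalling and Rbfox3 encodes the nuclear protein NeuN.

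**Figure D5:**
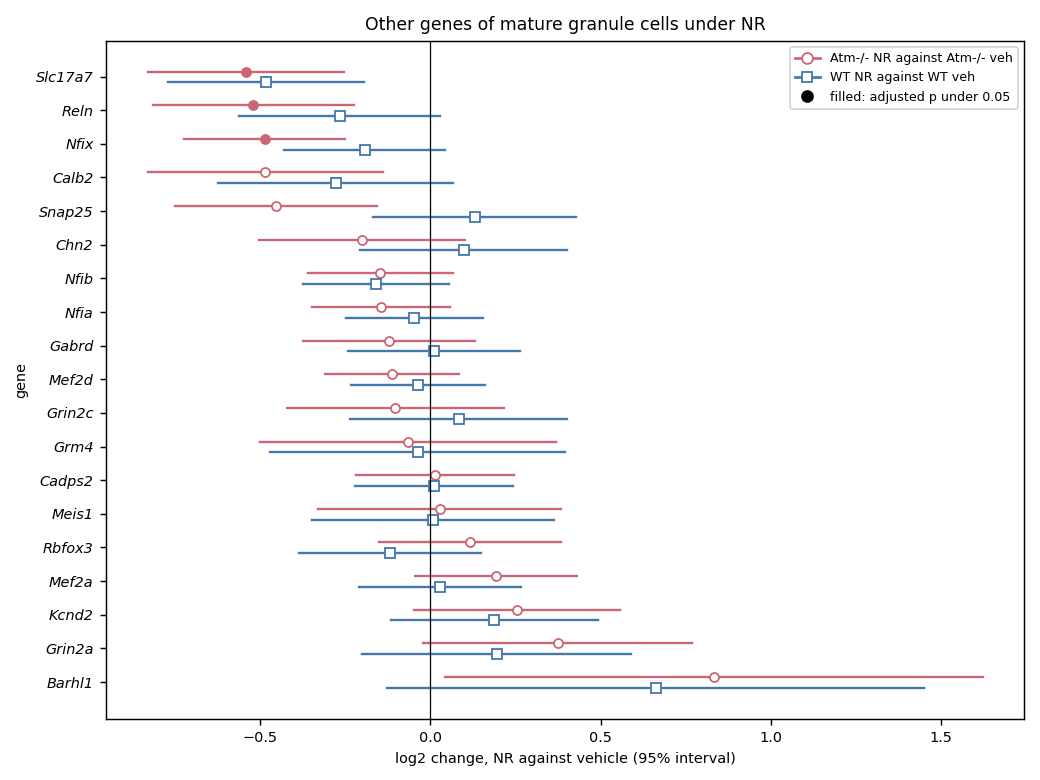
Log2 change under NR with 95% intervals (x axis) of 19 other genes of mature granule cells (rows), in Atm-/- mice (circles) and in WT mice (squares), with filled symbols for an adjusted p under 0.05. The filled circles are Slc17a7 (-0.54), Reln (-0.52) and Nfix (-0.49), and no gene is filled in WT mice.

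Genes of granule cell progenitors form another list. Atoh1, which defines the progenitor, was not well above background on any array, and 9 of the 10 listed genes were tested. With limma none passed in any comparison. In Atm-/- veh against WT veh, where 4 of the 9 (3 lower and 1 higher) had an unadjusted p under 0.05 beside 14.6% of all probes, 7 of 9 were lower, with a median of -0.36, led by Ccnd2 at -1.16 (adjusted p = 0.252) and Sfrp1 at -0.64 (adjusted p = 0.285), while Nhlh1 was at 0.52 (adjusted p = 0.243) and Ptch1 at 0.05. Ccnd2, a cyclin also found in neurogenic forebrain, read 13.20 on WT veh 4 against a mean of 10.91 on the other WT veh arrays, and without that array it differed by -0.58 (adjusted p = 0.2). The median of the list was then -0.32.

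Partners and paralogs of the 10 genes give the last view, with 17 of 20 tested, since Cbln2, Cbln4 and Neurod4 were too dim. Neurod6, a NeuroD factor best known from the forebrain, was the only 1 of the 17 called. It was called for NR over both genotypes, where 10.8% of all probes were. It read 8.52, 8.67, 8.90 and 8.81 in WT veh and 7.86, 7.93, 7.93 and 7.94 in WT NR mice, and 7.87, 8.38, 8.51 and 8.05 in Atm-/- veh and 8.02, 8.02, 7.97 and 7.78 in Atm-/- NR mice. The WT groups did not overlap, while the Atm-/- groups did. Under NR it fell over both genotypes, with a change of -0.53 (SE 0.09, adjusted p = 0.00569), and it was called in all 23 other settings. The change was -0.81 in WT (adjusted p = 0.229) and -0.26 in Atm-/- (adjusted p = 0.211). The 3 neurexin genes, to which Cbln1 binds, differed by -0.04 to 0.06 in Atm-/- NR against Atm-/- veh, and none passed. The Zic paralog Zic4 differed by -0.28 there (adjusted p = 0.319). Among markers of the other cell types Car8, of Purkinje cells, rose under NR in Atm-/- by 1.10 (adjusted p = 0.0417). It was the only one of them called there, beside 9.04% of all probes, and it differed by 1.43 in WT (adjusted p = 0.371).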

How the data were processed

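RNA of the cerebellar cortex of each mouse was labelled with Cy3 and hybridised to 1-colour Agilent arrays of 62976 spots (3671 controls). The authors deposited the intensities per array as extracted by Agilent Feature Extraction 12.0.3.1, background-subtracted processed signals among them. The authors also deposited a score for each probe and array, which their methods describe as a quantile normalized log value turned into a z value. Here log2 processed signals were used. Control and outlier spots were dropped, a probe was kept where the 4 arrays of any group all had it well above background (37253 of 56605, 65.8%), arrays were quantile normalized and spots of a probe averaged. The study's z-ratio thresholds were not applied.

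The brightest kept probe stands for a gene, and other probes are given where they differ. Probes were named through RefSeq accessions on GRCm38.p6 (32994 probes, 58.3%). limma 3.58.1 in R 4.3.3 was fitted to all probes with 4 group means (12 residual degrees of freedom), with Benjamini-Hochberg adjustment over all 37253 probes and a threshold of 0.05. p-values measure the spread between mice. Tests were checked on simulated data with independent noise for each probe and planted changes larger than those of the 10 genes. The simulated data had no outlying array and no genes varying together, which leaves these conditions unchecked. Named genes were the 10 members, list genes that were called or had one of the 2 highest or lowest changes between genotypes under vehicle, the 5 genes most alike in course, and Atm. Other list genes named (the neurexins and Zic4, and Car8 among markers) were added after their values were seen. The members and lists were chosen with earlier results of these data known. Alternatives were another scaling, background correction, filter, probe choice, test, weighting, a replicate block, fewer arrays and the deposited scores. Median signal per array ranged from 111.8 to 175.7, no spot was saturated, and 4 arrays per group limit the precision. Replicate numbers did not pair mice. Some genes of the lists are not reported here.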

Additional observations from a re-analysis of the deposited data

Results flagged for a closer look

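In 3 of 44 groups of 4 mice tested, 1 array lay far from the other 3, and chance alone marks about 1 in 20 groups. In all 3 it was the same array, the 4th of WT veh. Zic1 read 16.7708 there, against 17.30 to 17.39 on the other WT veh arrays. Zic2 read 14.0843, against 14.95 to 15.04. Pax6 read 12.2976, against 13.09 to 13.19. The choroid plexus and forebrain markers of this array are given above, and their part in these values was not tested. No granule cell gene had an NR effect that passed the test of a difference between genotypes.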

How the results depend on the processing

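None of the granule cell genes was called in Atm-/- veh against WT veh, WT NR against WT veh, Atm-/- NR against WT NR, the difference of NR effects or genotype over both treatments, under any alternative run. In Atm-/- NR against Atm-/- veh their number rose from 0 to 1 in 4 settings, given here with the calls over all probes. They were the arrays of the compared groups alone (2592), array weights (6799), the methods' t-test (3184), and Y-linked arrays alone and without WT veh 4 (1832). The last setting also gave 4 for NR over both genotypes (Neurod2, Cbln3, Fat2 and Pax6), where 11.8% of all probes were called, and 1 in the F test, where 1.08% were. With 1 array left out the number ranged from 0 to 1 in Atm-/- NR against Atm-/- veh. For NR over both genotypes it also ranged from 0 to 1, where 2255 to 4672 of all probes were called. Of the other granule cell genes, 3 in Atm-/- NR against Atm-/- veh became 1 with Y-linked arrays alone, 5 with array weights and 1 with the methods' t-test, and 0 to 5 with 1 array left out. The 4 called for NR over both genotypes became 2 with Y-linked arrays alone and 3 to 5 with 1 array left out. Over all probes the 3366 calls in Atm-/- NR against Atm-/- veh became 364 with Y-linked arrays alone, 1832 with these and without WT veh 4, 1553 genes with the mean of all probes, 6799 with array weights and 845 (without Atm-/- veh 1) to 4469 with 1 array left out. The causes were not tested.

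The replicate number marks no shared litter or day in the labels, and over 24 pairs of equal number deviations correlated by -0.328 to 0.367, above 0.1 in 6. With the replicate block 0 granule cell genes were called, as without it, and calls over all probes in Atm-/- NR against Atm-/- veh went from 3366 to 3140 and in the F test from 1802 to 1154.

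Of 1590 recomputed log2 differences of single genes 122 changed sign, all of them of granule cell genes that were not called. With scaling to the 75th percentile it was Cbln1 0.024 and Pax6 -0.019 in Atm-/- veh against WT veh, Zic1 0.057 in Atm-/- NR against Atm-/- veh, Etv1 0.013 in WT NR against WT veh, Neurod1 0.012 in Atm-/- NR against WT NR and Zic2 0.043 in the difference of NR effects. With normexp it was Cbln1 -0.023 in WT NR against WT veh. With the deposited z-scores it was Cbln1 -0.0025 in WT NR against WT veh. With the mean of all probes of a gene it was Zic2 0.068 and Pax6 -0.067 in Atm-/- veh against WT veh, Zic2 -0.14 in Atm-/- NR against Atm-/- veh and Pax6 0.059 in the difference of NR effects. With the arrays of the compared groups alone it was Cbln1 -0.0012 in WT NR against WT veh and Cbln1 -0.00054 in Atm-/- NR against WT NR. With Y-linked arrays alone it was Cbln1 0.0059 in Atm-/- veh against WT veh, Cbln1 -0.00084, Zic2 -0.00059 and Etv1 -0.022 in Atm-/- NR against Atm-/- veh, Cbln1 -0.083, Cbln3 -0.13, Zic1 -0.089 and Zic2 -0.039 in WT NR against WT veh, Neurod1 0.074, Etv1 0.016 and Pax6 0.078 in Atm-/- NR against WT NR and Gabra6 0.052, Zic2 0.039 and Pax6 0.042 in the difference of NR effects. With array weights it was Gabra6 -0.027 and Pax6 -0.15 in Atm-/- veh against WT veh, Cbln1 -0.14, Cbln3 -0.088, Zic1 -0.12 and Zic2 -0.16 in WT NR against WT veh and Gabra6 0.052, Zic1 0.044, Zic2 0.18 and Pax6 0.14 in the difference of NR effects. With Y-linked arrays alone and without WT veh 4 (chosen after seeing the data) it was Gabra6 -0.038 and Pax6 -0.17 in Atm-/- veh against WT veh, Zic2 -0.00022 and Etv1 -0.022 in Atm-/- NR against Atm-/- veh, Neurod1 -0.025, Cbln1 -0.23, Cbln3 -0.27, Zic1 -0.23 and Zic2 -0.27 in WT NR against WT veh, Neurod1 0.072, Etv1 0.016 and Pax6 0.078 in Atm-/- NR against WT NR and Gabra6 0.21, Neurod2 0.010, Zic1 0.13, Zic2 0.27 and Pax6 0.25 in the difference of NR effects. With 1 array left out, 29 differences near 0 changed sign. In Atm-/- veh against WT veh it ran from -0.043 to 0.21 (Gabra6), -0.22 to 0.039 (Neurod1), -0.20 to 0.037 (Cbln1), -0.19 to 0.014 (Zic1), -0.29 to 0.032 (Zic2) and -0.18 to 0.12 (Pax6). In Atm-/- NR against Atm-/- veh it ran from -0.029 to 0.050 (Zic2) and -0.039 to 0.079 (Etv1). In WT NR against WT veh it ran from -0.20 to 0.048 (Gabra6), -0.16 to 0.076 (Cbln1), -0.089 to 0.13 (Cbln3), -0.13 to 0.094 (Zic1), -0.19 to 0.12 (Zic2), -0.13 to 0.047 (Etv1), -0.17 to 0.050 (Fat2) and -0.26 to 0.039 (Pax6). In Atm-/- NR against WT NR it ran from -0.075 to 0.11 (Gabra6), -0.071 to 0.052 (Neurod1), -0.049 to 0.041 (Cbln1), -0.010 to 0.13 (Cbln3), -0.13 to 0.011 (Etv1) and -0.096 to 0.023 (Pax6). In the difference of NR effects it ran from -0.20 to 0.055 (Gabra6), -0.058 to 0.20 (Neurod1), -0.036 to 0.20 (Cbln1), -0.15 to 0.080 (Zic1), -0.12 to 0.20 (Zic2), -0.028 to 0.15 (Etv1) and -0.15 to 0.15 (Pax6).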
